A study of Mus musculus with 6 samples.

Results

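The genes described here are 40 components of the lysosome, the acidic compartment in which macrophages digest what they take up. They comprise 17 subunits or accessory proteins of the proton pump that acidifies it, and 23 peptidases, other hydrolases, luminal and membrane proteins and transcription factors of the same organelle. They were chosen by name, as the rows of the deposited gene matrix whose Ensembl identifiers map to the 40 symbols, and are 40 of 55401 rows. Messenger RNA was sequenced from bone marrow-derived macrophages (BMDMs), primary macrophages grown out of bone marrow, of C57BL/6 mice. The siPiezo1 group (3 libraries) had been transfected with a small interfering RNA against Piezo1, a mechanically gated cation channel. The siNC group (3 libraries) had received a negative-control siRNA. Both groups were mechanically stretched for 4 h, so stretch is common to all 6 libraries, and the study asked how Piezo1 promotes macrophage proliferation under mechanical stimuli. Only RNA was measured here, not protein, enzyme activity or pH.

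The vacuolar H+-ATPase (V-ATPase) is a rotary pump. Its cytosolic V1 sector hydrolyses ATP, and its membrane V0 sector carries protons into the lumen. The low pH activates cathepsins, the peptidases of the lysosome, together with enzymes that take apart glycans and lipids. The transcription factors TFEB and TFE3 act on many lysosomal genes through short promoter elements built around the letters CACGTG. In macrophages these genes serve phagocytosis, antigen processing and the handling of engulfed lipid.

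The promoter letters are shown because TFEB and TFE3 act on many lysosomal genes through elements built around them. They did not define the 40 genes, which were chosen by name. Windows of 250 bases before to 50 bases after annotated transcription starts were taken from RefSeq on GRCm38.p6. A window existed for 31 of the 40 genes (41 windows), and 9 genes had none. CACGTG, which reads the same on both strands, occurred in a window of 12 of the 31 genes (38.7%), against 2187 of all 27025 genes with a window (8.09%). The 27025 genes were not restricted to those expressed in these libraries, nor matched to the 31 in level or base composition. These shares therefore do not show whether the letters are particular to lysosomal genes. A longer run of letters with CACGTG at its centre, which also reads the same on both strands, was searched too. It occurred in 0 of the 31 genes, against 100 of all 27025 genes (0.37%). For a run that rare, 31 genes are too few to show a difference from the rest. Lamp1 held 4 copies of CACGTG, 5 genes held 2 (Atp6v0b, Ctsa, Ctsd, Gla and Mcoln1) and the other 6 held 1. Each line below gives the copy nearest the start, with 12 bases on each side and CACGTG in capitals, read 5′ to 3′ on the strand of the gene.
Atp6v0d1: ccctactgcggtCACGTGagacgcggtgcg
Atp6v1a: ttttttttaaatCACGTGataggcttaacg
Ctsd: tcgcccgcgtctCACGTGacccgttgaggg
Ctsl: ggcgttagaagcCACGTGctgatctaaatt
Gla: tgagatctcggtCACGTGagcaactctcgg
Lamp1: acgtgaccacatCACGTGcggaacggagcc
Mcoln1: aggcgccccgctCACGTGaccgcggcgcat
In the same order, these lie at chr8:105566050-105566079 (- strand), chr16:44139373-44139402 (- strand), chr7:142387908-142387937 (- strand), chr13:64370739-64370768 (- strand), chrX:134601182-134601211 (- strand), chr8:13159134-13159163 (+ strand) and chr8:3500462-3500491 (+ strand), on GRCm38.p6. A match is a run of letters and not a measured binding site. The 12 genes with the letters had a median log2 fold change of 0.04, siPiezo1 over siNC (range -0.14 to 0.61), and the 19 without had -0.01 (range -0.50 to 0.18). Without the library siNC 2, described below, these medians were 0.01 and -0.11.

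To show a whole promoter with the letters beside one without them, the 250 bases that end just before the start are given for Mcoln1, the calcium channel of the lysosomal membrane, and for Grn, the progranulin gene. Mcoln1 lies at chr8:3500269-3500518 (+ strand) and holds CACGTG 2 times, in capitals. Grn lies at chr11:102430257-102430506 (+ strand) and holds it 0 times.
Mcoln1: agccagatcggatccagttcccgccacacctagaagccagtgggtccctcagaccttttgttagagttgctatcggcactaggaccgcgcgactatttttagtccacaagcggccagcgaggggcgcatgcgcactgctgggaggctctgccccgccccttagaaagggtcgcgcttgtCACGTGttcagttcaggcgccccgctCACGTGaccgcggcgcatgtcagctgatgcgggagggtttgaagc
Grn: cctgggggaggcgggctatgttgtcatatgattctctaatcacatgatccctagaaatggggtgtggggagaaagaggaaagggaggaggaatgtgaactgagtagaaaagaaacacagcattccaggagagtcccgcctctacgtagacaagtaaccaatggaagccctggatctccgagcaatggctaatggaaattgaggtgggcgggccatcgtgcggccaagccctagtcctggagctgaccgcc
The expression of both genes is given below with the genes of their role.

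The libraries held 61086684 to 75052745 estimated counts, or about 16.1 to 19.7 M fragments. Values below are in CPM, counts divided by the size of their library, to which edgeR's trimmed-mean (TMM) factors were applied. Piezo1 itself was at 111, 109 and 113 CPM in siPiezo1 libraries 1, 2 and 3, against 180, 285 and 189 CPM in siNC libraries 1, 2 and 3. Its mean in siPiezo1 was 51.0% of that in siNC, lower in every siPiezo1 library and not absent. Piezo1 was highest in siNC 2, so this percentage rests partly on that library. Against siNC 1 and 3 alone the reduction was smaller. All 10 macrophage markers exceeded 1 CPM in every library. Their summed level was 34536 to 37367 CPM in siPiezo1 and 28030 to 35361 CPM in siNC, with the lowest sum in siNC 2. That library stood apart from the other 5. A list of 10 neutrophil markers, 8 of them above 1 CPM throughout, summed to 701 to 727 CPM in siPiezo1 and 749 to 3235 CPM in siNC, the highest again being siNC 2. Lyz2 made up most of the macrophage sum. In siNC 2, Cd14 was the highest of the 6 libraries (1263 CPM) and Itgam was not the lowest (664 CPM). The other macrophage markers were lowest there. Of the neutrophil list, Csf3r was lowest in siNC 2 (58.7 CPM) and the others were highest. Cd3d, Cd3e, Cd3g and Ncr1 of the T and NK list, Pax5 of the B cell list and Cd209a of the dendritic list were at 0 in every library. The other members of these lists were not all at 0. Summed, the dendritic list was at 3.87 to 6.86 CPM in siPiezo1 and 7.89 to 12.7 CPM in siNC. The B cell list was at 1.82 to 3.01 CPM in siPiezo1 and 2.88 to 3.54 CPM in siNC. The T and NK list was at 0.332 to 0.475 CPM in siPiezo1 and 0 to 2.54 CPM in siNC. The highest sum was in siNC 2 for the dendritic and the T and NK lists, not for the B cell list. In bulk RNA, fewer cells of a type and less RNA per cell cannot be told apart. Results are therefore given with and without siNC 2, and its part in them is stated where it moved a value.

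With all 6 libraries, most of the lysosomal genes differed little in mean level between the groups. All 40 passed the filter on low counts. None was called at an adjusted p of 0.05 by edgeR's quasi-likelihood test, Benjamini-Hochberg adjusted, against 1 of 15959 genes in all (1600014C10Rik, lower, 0.00627%). At an unadjusted p under 0.05 there were 5 of the 40, against 786 of all genes (4.93%). DESeq2, adjusted the same way, called 88 of 15869 genes (0.555%): 46 higher in siPiezo1 (0.29%), with 0 of the 40 among them, and 42 lower (0.265%), with 1 of the 40. Limma-voom called 0 of the 40, against 1 of 15959 genes (0.00627%). Log2 fold changes lay within 0.2 of 0 for 34 of the 40 (85.0%), against 8994 of all genes tested (56.4%). Without siNC 2 this held for 27 of the 40 (67.5%), against 51.3% of all genes tested in both fits. The sign changed for 12 of the 40, against 3756 of 15945 genes tested in both fits. The 40 genes are also far more abundant than most, with a median of 414 CPM against 13.5 CPM over all genes tested. The median log2 fold change was 0.02 over the 40 and -0.01 over all genes.

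The groups did not overlap for 7 of the 40 genes (17.5%), against 11.9% of all genes tested. Tcirg1, Ctsz, Gla and Lamp2 were higher in every siPiezo1 library, against 6.24% of all genes in that direction. Atp6v0a1, Atp6v0d2 and Ctsc were lower in every siPiezo1 library, against 5.65% of all genes in that direction. The heat map shows how the 40 genes vary among libraries.

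**Figure D1:**
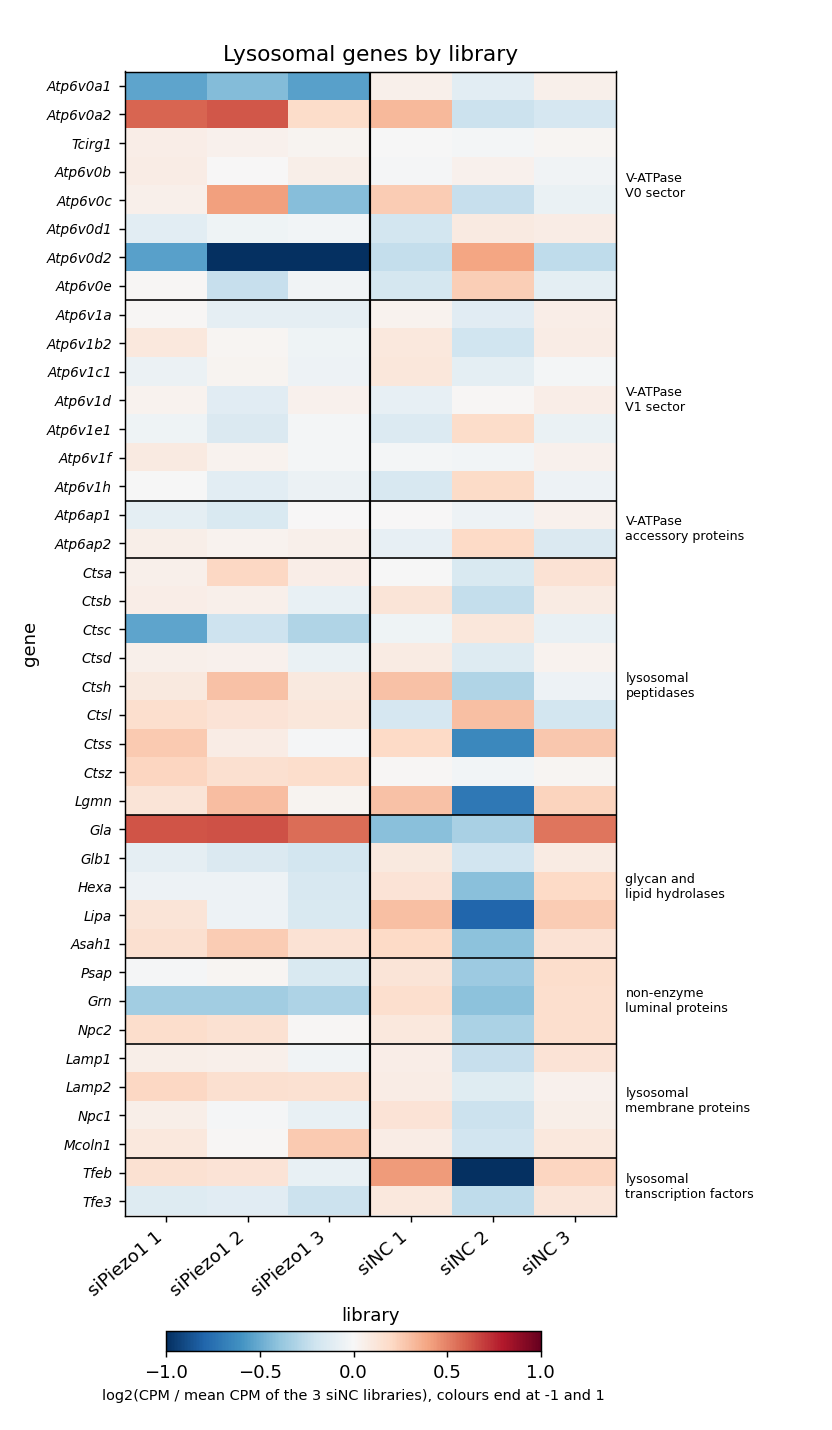
Colour shows log2 CPM of each of the 40 genes (rows, by role) in each library (columns, siPiezo1 left of siNC), relative to the gene's mean over the 3 siNC libraries; values beyond the ends of the colour scale take the end colour. The siNC 2 column is blue for most hydrolase and membrane genes, of which 20 of 23 were lowest in that library, and the siPiezo1 columns are below the siNC columns for Atp6v0a1 and Atp6v0d2.

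Without siNC 2, edgeR's quasi-likelihood test, Benjamini-Hochberg adjusted at 0.05, called 180 of 16442 genes (1.09%). Of the 40 lysosomal genes, Ctsl was called higher in siPiezo1, against 0.645% of all genes in that direction. Atp6v0a1 and Grn were called lower, against 0.45% of all genes in that direction. At an unadjusted p under 0.05 there were then 12 of the 40, against 14.3% of all genes tested.

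The transcripts spanned about 3 orders of magnitude of level. Per kilobase of exon, the most abundant in siPiezo1 was Ctsd, the aspartic peptidase cathepsin D, at a mean of 7446 CPM per kilobase in siPiezo1 and 7386 in siNC. Psap followed at 5127 in siPiezo1 and 5302 in siNC, then Ctss at 3938 and 3646 in the same groups, and Ctsb at 3414 and 3382. In siPiezo1 the library ranges of these 4 genes did not overlap, whereas in siNC those of Psap and Ctss and of Ctss and Ctsb did, so the spread does not settle their order there. Tfeb was the lowest at 5.21 in siPiezo1 and 4.94 in siNC, with Atp6v0d2 next at 5.98 and 11.2. The order of the 6 most abundant genes was the same in both groups. Together the 40 genes took 68293 to 74662 CPM in siPiezo1 and 60539 to 77233 CPM in siNC, the lowest sum being siNC 2.

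The V0 sector held the largest differences within the pump, in Atp6v0d2, Atp6v0a1 and Atp6v0a2, which are isoforms of subunits d and a. Subunit a anchors the stator and forms part of the proton path. Its isoforms here are Atp6v0a1 (a1, best known from neurons), Atp6v0a2 (a2, of Golgi and endosomes) and Tcirg1 (a3, of late endosomes, lysosomes and the osteoclast ruffled border). Atp6v0a1 (ENSMUSG00000019302) was at 68.9, 73.8 and 68.1 CPM in siPiezo1 libraries 1, 2 and 3, against 102.8, 92.5 and 102.9 CPM in siNC libraries 1, 2 and 3. The groups did not overlap, and the highest siPiezo1 library was well below the lowest siNC library. On the log2 scale the fold change was -0.50 ± 0.08 (SE), with adjusted p = 0.646 by edgeR's quasi-likelihood test, Benjamini-Hochberg adjusted. Without siNC 2 the value was -0.55 ± 0.07 with adjusted p = 0.0126 in the same test, and DESeq2 on all 6 libraries gave adjusted p = 0.000800. Over all the alternatives its adjusted p ran from 0.000800 to 1, while the log2 fold change stayed between -0.55 and -0.48 when single libraries were left out.

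Atp6v0a2 pointed the other way. It was at 102.1, 105 and 77.6 CPM in siPiezo1 libraries 1, 2 and 3, against 85.5, 58.9 and 60.7 CPM in siNC libraries 1, 2 and 3. Library siPiezo1 3 was below siNC 1, so the groups overlapped, and the log2 fold change of 0.47 ± 0.18 had adjusted p = 0.978 by edgeR's quasi-likelihood test, Benjamini-Hochberg adjusted. Leaving out siNC 2, the lowest library for Atp6v0a2, gave 0.38 ± 0.21. Tcirg1, the most abundant of these isoforms, was at 436, 429 and 423 CPM in siPiezo1 and 413, 411 and 422 CPM in siNC. Its groups met almost edge to edge, and the log2 fold change was 0.05 ± 0.07.

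Shares among the a isoforms, computed per kilobase of exon in each library, put these values on 1 scale. The a1 share was 10.1, 10.9 and 10.6% in siPiezo1 libraries 1, 2 and 3, against 15.3, 14.5 and 15.5% in siNC libraries 1, 2 and 3. That is 10.5 ± 0.374% in siPiezo1 and 15.1 ± 0.536% in siNC (SD, n = 3 each), a gap several times the spread within a group. The a2 share was 10.8 ± 1.43% in siPiezo1 and 7.84 ± 1.55% in siNC, and the library ranges overlapped. Tcirg1 made up the remainder, 78.7 ± 1.48% in siPiezo1 and 77.1 ± 1.79% in siNC. The level of a1 relative to a2 was 0.891, 0.925 and 1.16 in siPiezo1 libraries 1, 2 and 3, against 1.59, 2.07 and 2.24 in siNC libraries 1, 2 and 3. A1 was below a2 in siPiezo1 1 and 2, and above it in siPiezo1 3 and in every siNC library. Shares carry no test here, and were 11.8% in siPiezo1 and 17.04% in siNC for a1 without the scaling by length.

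Subunit d couples proton flow to the central stalk. Atp6v0d1 is the isoform of most tissues, and Atp6v0d2 is known from osteoclasts and some macrophages. Atp6v0d1 was at 193, 201 and 203 CPM in siPiezo1 and 183, 220.5 and 218 CPM in siNC, with overlapping groups and a log2 fold change of -0.06 ± 0.10, and -0.02 ± 0.08 without siNC 2. Atp6v0d2 (ENSMUSG00000028238) was at 19.5, 13.3 and 12.8 CPM in siPiezo1 libraries 1, 2 and 3, against 24.1, 37.4 and 23.8 CPM in siNC libraries 1, 2 and 3. The groups did not overlap, siPiezo1 1 was the nearest to the siNC libraries, and siNC 2 was the highest of the 6. For Atp6v0d2 the log2 fold change was -0.90 ± 0.25, with adjusted p = 0.904 by edgeR's quasi-likelihood test, Benjamini-Hochberg adjusted, and -0.66 ± 0.19 without siNC 2. The d2 share among d isoforms per kilobase was 4.68 ± 1.22% in siPiezo1 and 8.04 ± 1.65% in siNC (SD, n = 3 each).

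A list of 8 osteoclast markers summed to 268 to 347 CPM in siPiezo1 and 236 to 549 CPM in siNC, the highest being siNC 2. Mmp9 made up most of the sum in every library, at 157 to 233 CPM in siPiezo1 and 139 to 417 CPM in siNC. Nfatc1, in contrast, was lowest in siNC 2, at 45.2 CPM. Of the 8, 4 exceeded 1 CPM in every library and the other 4 did not, and Calcr, the calcitonin receptor gene, did not exceed 0.12 CPM. Their part in the Atp6v0d2 values was not tested.

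**Figure D2:**
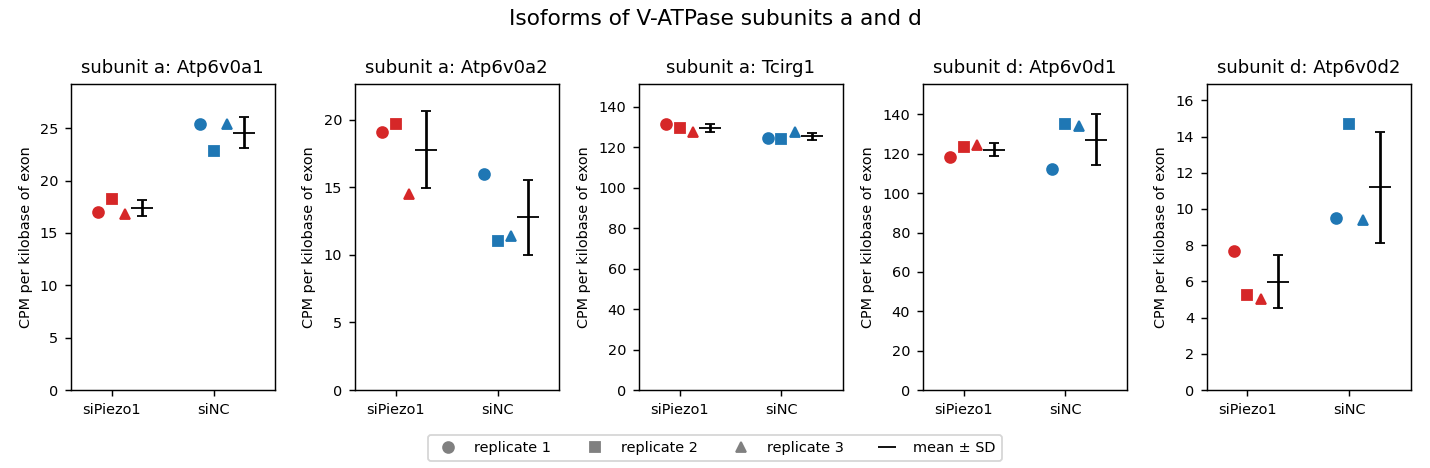
Points are libraries (siPiezo1 left, siNC right, replicates by shape) and black marks are group means ± SD (n = 3), for CPM per kilobase of exon of the subunit a and d isoforms, 1 panel each with its axis from 0. The a1 points of siPiezo1 lie below all siNC points, as do the d2 points, while the Tcirg1 and Atp6v0d1 points of the groups lie close together.

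The rest of the pump showed small fold changes. The 12 subunits and accessory proteins other than a and d had log2 fold changes from -0.08 to 0.05, with a median of -0.02. Without siNC 2 their median was 0.006, and all 12 still lay within 0.2 of 0. The sign then changed for 5 of the 12, against 3756 of 15945 genes tested in both fits. Among V0 genes, Atp6v0b, a proteolipid of the rotor ring, was at 254 to 274 CPM over all libraries, and Atp6v0e at 169 to 235 CPM. Atp6v0e was highest in siNC 2. Its log2 fold change was -0.08 ± 0.13, and 0.05 ± 0.08 without that library. Atp6v0c, the main proteolipid of the ring, varied most within groups, at 723, 930.0 and 520.2 CPM in siPiezo1 and 835, 596 and 667 CPM in siNC. Its pseudogene Atp6v0c-ps2 matches it at 99.8% over 465 aligned bases and was listed at 47.7, 3.17 and 51.4 CPM in siPiezo1 and 3.39, 26.6 and 16.6 CPM in siNC. Counts could be split between these copies, so the Atp6v0c values are uncertain. Its log2 fold change was 0.05 ± 0.23, and -0.05 ± 0.31 without siNC 2.

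Of the V1 genes, Atp6v1a encodes the catalytic subunit. It was at 965, 903 and 900.5 CPM in siPiezo1 and 982, 889 and 1007 CPM in siNC, with a log2 fold change of -0.06 ± 0.09, and -0.11 ± 0.06 without siNC 2. The stator gene Atp6v1e1 was at 300.1, 280.1 and 305.5 CPM in siPiezo1 and 281, 351 and 295 CPM in siNC. Both pairs of groups overlapped. Atp6v1f, of the central stalk, was at 122.5, 118 and 113 CPM in siPiezo1 and 113, 113 and 118 CPM in siNC. Atp6v1h, the regulatory subunit H, was at 158, 148 and 152 CPM in siPiezo1 and 142, 181 and 153 CPM in siNC. Their log2 fold changes were -0.07 ± 0.10 for Atp6v1e1, 0.04 ± 0.07 for Atp6v1f and -0.06 ± 0.11 for Atp6v1h. Without siNC 2 they were 0.03 ± 0.06 for Atp6v1e1, 0.02 ± 0.06 for Atp6v1f and 0.05 ± 0.06 for Atp6v1h. The other V1 genes, Atp6v1b2, Atp6v1c1 and Atp6v1d, lay between -0.03 and 0.03, and between -0.07 and -0.01 without siNC 2.

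The accessory protein Atp6ap1, needed for assembly of the pump, was at 299.9, 288 and 322 CPM in siPiezo1 and 322, 309.5 and 330.0 CPM in siNC, a log2 fold change of -0.08 ± 0.08. Atp6ap2, also known as the prorenin receptor, was at 415, 408 and 412 CPM in siPiezo1 and 378, 458 and 361 CPM in siNC. Its log2 fold change was 0.05 ± 0.11, and it was 0.15 ± 0.05 without siNC 2, the highest library. Summed over all 17 genes, the pump took 5124, 5148 and 4779 CPM in siPiezo1 and 5159, 4971 and 5047 CPM in siNC. The sums overlapped, and the median log2 fold change of the 17 was -0.03, with 10 genes below 0 and 7 above.

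**Figure D3:**
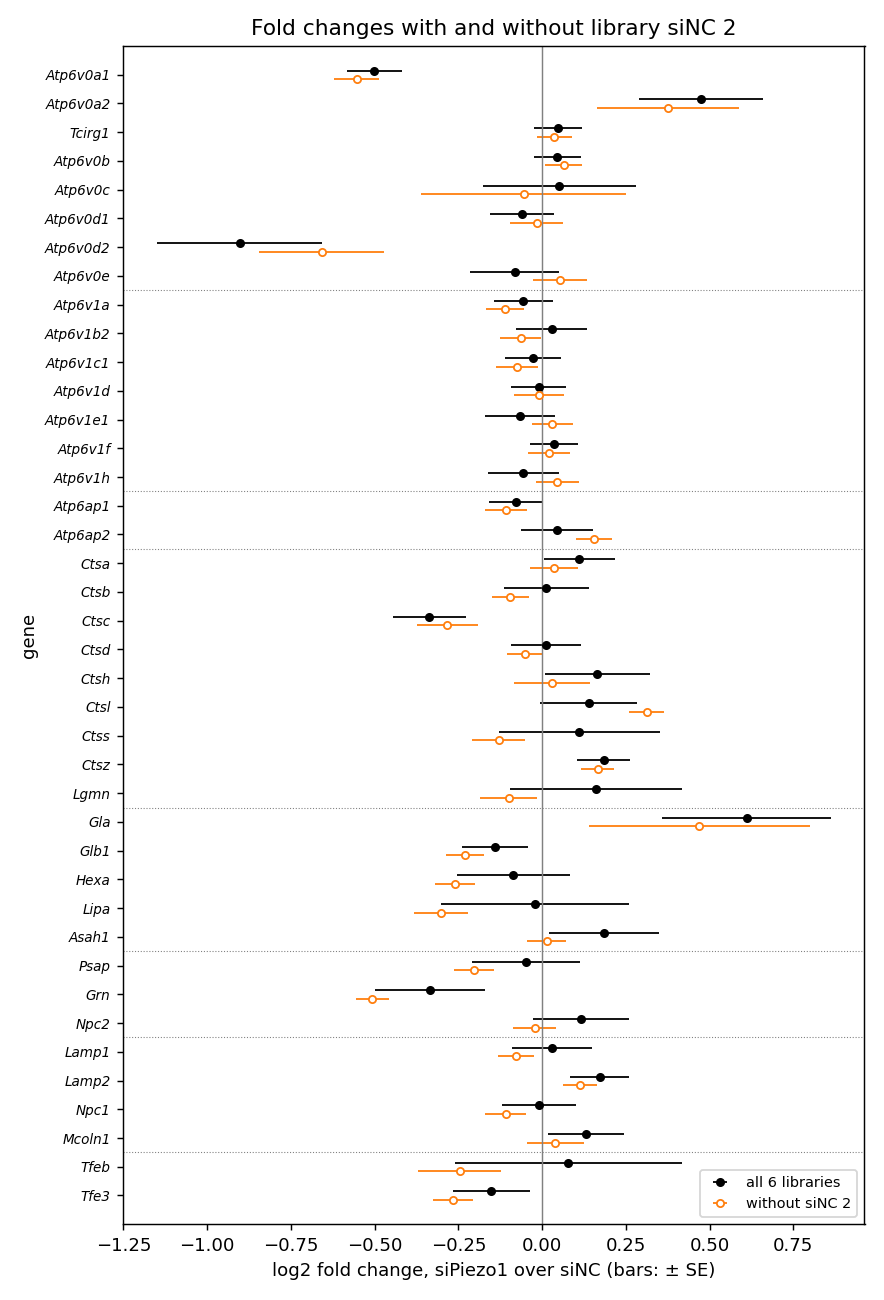
Log2 fold changes, siPiezo1 over siNC, with bars of ± 1 SE, for the 40 genes by role (rows), from all 6 libraries and without siNC 2. Pump genes other than Atp6v0a1, Atp6v0a2 and Atp6v0d2 sit near 0 with all 6 libraries, and many hydrolase genes shift to lower values when siNC 2 is left out.

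Cathepsins and other peptidases were the most abundant class, with sums of 44196, 43375 and 40290 CPM in siPiezo1 and 44719, 35933 and 43920 CPM in siNC. Ctsb, a cysteine peptidase, and Ctsd made up most of it and had log2 fold changes of 0.01 each, against -0.10 for Ctsb and -0.05 for Ctsd without siNC 2. In Ctsb the libraries ran from 15220.5 to 16770.4 CPM in siPiezo1 and from 13621 to 17534 CPM in siNC. In Ctsd they ran from 15024 to 16280 CPM in siPiezo1 and from 14395 to 16631 CPM in siNC. The groups overlapped widely for both. Of the exon bases of Ctsd, 34.4% are shared with Gm49369, which was at 0 in every library. Ctss, which cleaves the invariant chain of MHC class II, was at 5922, 5204 and 4917 CPM in siPiezo1 and 5698, 3175 and 5980.0 CPM in siNC. Lgmn, an asparaginyl endopeptidase that activates other cathepsins, was at 558.5, 632 and 520.0 CPM in siPiezo1 and 624, 311 and 595 CPM in siNC. In both Ctss and Lgmn the siNC 2 library alone was low, and the other 5 libraries overlapped. The log2 fold change was 0.11 ± 0.24 for Ctss, and -0.13 ± 0.08 without siNC 2. For Lgmn it was 0.16 ± 0.26, and -0.10 ± 0.08 without siNC 2.

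Ctsl (ENSMUSG00000021477), a cysteine endopeptidase, followed another pattern. It was at 1187, 1161 and 1139.9 CPM in siPiezo1 libraries 1, 2 and 3, against 940.2, 1297 and 929 CPM in siNC libraries 1, 2 and 3. The siPiezo1 libraries lay together, above siNC 1 and 3 and below siNC 2. Its log2 fold change was 0.14 ± 0.14 with adjusted p = 0.991 by edgeR's quasi-likelihood test, Benjamini-Hochberg adjusted. Without siNC 2 it was 0.31 ± 0.05 with adjusted p = 0.0351 in the same test, the lowest of its alternatives, which reached 1. Of its exon bases, 26.8% lie opposite the antisense gene Gm47123, which was at 0 in every library.

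Ctsz, a carboxypeptidase also called cathepsin X, was at 2188, 2107 and 2122 CPM in siPiezo1 libraries 1, 2 and 3, against 1901, 1843 and 1905 CPM in siNC libraries 1, 2 and 3. The groups did not overlap, and the spread within each was small. Ctsz had a log2 fold change of 0.18 ± 0.08, with adjusted p = 0.978 by edgeR's quasi-likelihood test, Benjamini-Hochberg adjusted, and 0.17 ± 0.05 without siNC 2. Ctsc, the dipeptidyl peptidase that activates granule serine proteases, was at 280.1, 349.6 and 328 CPM in siPiezo1 libraries 1, 2 and 3, against 391, 435 and 383.5 CPM in siNC libraries 1, 2 and 3. Here every siPiezo1 library was below every siNC library, and siNC 2, the library with the highest neutrophil marker sum, was the highest. The log2 fold change of Ctsc was -0.34 ± 0.11 and -0.28 ± 0.09 without siNC 2, with adjusted p = 0.978 in the 6 libraries by edgeR's quasi-likelihood test, Benjamini-Hochberg adjusted. The part of neutrophil-type transcripts in the Ctsc values was not tested.

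Ctsa, a carboxypeptidase that also protects beta-galactosidase, was at 842, 938.5 and 851.5 CPM in siPiezo1 and 808, 729.7 and 899.7 CPM in siNC. Of its exon bases, 10.5% lie opposite Pltp, which was at 77.9, 83.8 and 68.3 CPM in siPiezo1 and 211, 27.6 and 227 CPM in siNC. Whether counting used the strand is not given in the sources used here, and so reads of the pair may not have been told apart. Ctsh, an aminopeptidase, was at 167, 191 and 167 CPM in siPiezo1 and 191, 127 and 151 CPM in siNC. Both genes had overlapping groups, with log2 fold changes of 0.11 ± 0.11 for Ctsa and 0.16 ± 0.16 for Ctsh. Without siNC 2 these were 0.04 ± 0.07 for Ctsa and 0.03 ± 0.11 for Ctsh.

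Among the enzymes of glycan and lipid breakdown, Gla stood furthest from 0. It encodes alpha-galactosidase A, the enzyme missing in Fabry disease. Gla was at 327, 328 and 312 CPM in siPiezo1 libraries 1, 2 and 3, against 158, 169 and 307 CPM in siNC libraries 1, 2 and 3. The siPiezo1 libraries lay close together and the siNC libraries did not, since siNC 3 was almost at the siPiezo1 level. Gla had a log2 fold change of 0.61 ± 0.25, with adjusted p = 0.978 by edgeR's quasi-likelihood test, Benjamini-Hochberg adjusted, and 0.47 ± 0.33 without siNC 2. Leaving out siNC 3, the library that set this spread, gave 0.98.

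Hexa, the alpha subunit of beta-hexosaminidase, was at 973, 969 and 899.7 CPM in siPiezo1 and 1107, 752.5 and 1155 CPM in siNC. Glb1, the beta-galactosidase gene, was at 169.8, 164 and 159.5 CPM in siPiezo1 and 193.5, 158 and 191 CPM in siNC. In both, the siPiezo1 libraries lay between siNC 2, the lowest, and the other siNC libraries. The log2 fold change of Hexa was -0.09 ± 0.17 and -0.26 ± 0.06 without siNC 2. That of Glb1 was -0.14 ± 0.10 and -0.23 ± 0.06 without it. Neither was called in either fit.

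Lipa, the acid lipase that frees cholesterol from its esters, was at 1447, 1283 and 1191 CPM in siPiezo1 and 1631, 765 and 1583 CPM in siNC. Asah1, acid ceramidase, was at 519, 553 and 514 CPM in siPiezo1 and 532.5, 349.7 and 513 CPM in siNC. In siNC 2 both were far below the other 5 libraries, and the log2 fold changes were -0.02 ± 0.28 for Lipa and 0.19 ± 0.16 for Asah1. Without siNC 2 they were -0.30 ± 0.08 for Lipa and 0.01 ± 0.06 for Asah1. The class summed to 3435, 3297 and 3076 CPM in siPiezo1 and 3622, 2194 and 3749 CPM in siNC.

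Of the luminal proteins that are not enzymes, Grn had the clearest difference once siNC 2 was set aside. Grn (ENSMUSG00000034708) encodes progranulin, a secreted protein that is also delivered to lysosomes and cut into granulins there. It was at 1129.6, 1127 and 1158 CPM in siPiezo1 libraries 1, 2 and 3, against 1613, 1079 and 1613 CPM in siNC libraries 1, 2 and 3. The siPiezo1 libraries lay together, well below siNC 1 and 3 and slightly above siNC 2. In 6 libraries the log2 fold change was -0.33 ± 0.16, with adjusted p = 0.978 by edgeR's quasi-likelihood test, Benjamini-Hochberg adjusted. Without siNC 2 it was -0.51 ± 0.05 with adjusted p = 0.00516 in the same test, and over all alternatives the adjusted p ran from 0.00516 to 1. DESeq2 on the 6 libraries gave adjusted p = 0.846.

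Psap, whose product is cut into the saposins that present lipids to hydrolases, was at 14415, 14717 and 13072 CPM in siPiezo1 and 15867, 11339 and 16443 CPM in siNC. Npc2, a luminal cholesterol carrier, was at 1483.5, 1457 and 1321 CPM in siPiezo1 and 1410.0, 1052.5 and 1469 CPM in siNC. For both genes siNC 2 was the lowest library. The log2 fold change of Psap was -0.05 ± 0.16, and -0.20 ± 0.06 without siNC 2, while Npc2 gave 0.12 ± 0.14, and -0.02 without siNC 2.

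**Figure D4:**
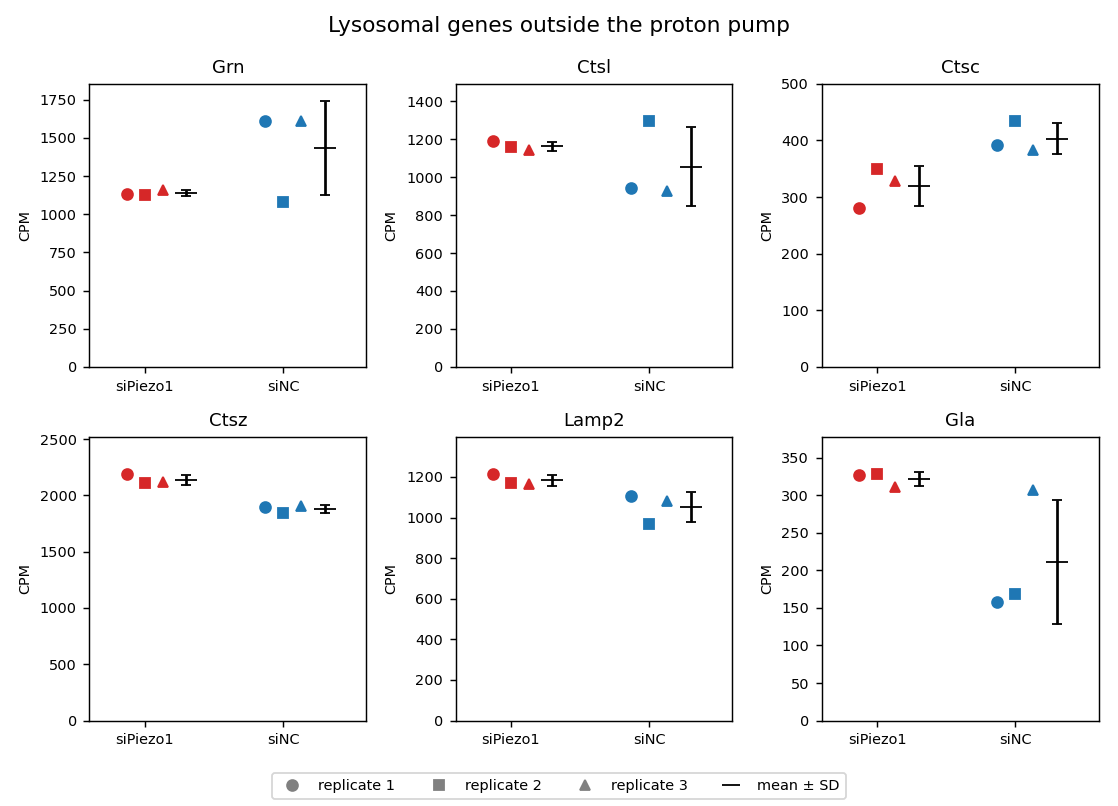
CPM in each library (points, siPiezo1 left and siNC right, replicates by shape) with group means ± SD (black marks, n = 3) for 6 lysosomal genes outside the pump, picked with their values known. Ctsz and Lamp2 show siPiezo1 libraries above every siNC library, Ctsc shows them below, and Grn and Ctsl show siNC 2 on the far side of the siPiezo1 points from siNC 1 and 3.

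Lysosomal membrane proteins differed little. Lamp1, a heavily glycosylated protein that lines the membrane, was at 2919, 2903 and 2732 CPM in siPiezo1 and 2933, 2379.8 and 3074 CPM in siNC, a log2 fold change of 0.03 ± 0.12, and -0.08 ± 0.05 without siNC 2. Lamp2, its relative that also serves chaperone-mediated autophagy, was at 1213.5, 1172 and 1166 CPM in siPiezo1 libraries 1, 2 and 3, against 1104, 967 and 1080.0 CPM in siNC libraries 1, 2 and 3. Every Lamp2 value in siPiezo1 was above every one in siNC. Its log2 fold change was 0.17 ± 0.09, with adjusted p = 0.978 by edgeR's quasi-likelihood test, Benjamini-Hochberg adjusted, and 0.11 ± 0.05 without siNC 2.

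Npc1, which exports cholesterol from the lysosome, was at 486, 462 and 444 CPM in siPiezo1 and 513, 402 and 485 CPM in siNC. Mcoln1, whose promoter is printed above, was at 73.5, 68.9 and 82.0 CPM in siPiezo1 and 71.7, 59.8 and 73.4 CPM in siNC. Both overlapped, with log2 fold changes of -0.01 ± 0.11 for Npc1 and 0.13 ± 0.11 for Mcoln1. Without siNC 2 these were -0.11 ± 0.06 for Npc1 and 0.04 ± 0.09 for Mcoln1.

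The transcription factor genes were among the scarcer transcripts. Tfeb was at 22.1, 21.8 and 18.9 CPM in siPiezo1 and 26.6, 9.95 and 23.0 CPM in siNC. Tfe3 was at 165.5, 167 and 155 CPM in siPiezo1 and 194, 152 and 196 CPM in siNC. In both genes siNC 2 was the lowest of the 6 libraries and the siPiezo1 libraries lay below siNC 1 and 3. Tfeb had a log2 fold change of 0.08 ± 0.34, and -0.25 ± 0.12 without siNC 2. That of Tfe3 was -0.15 ± 0.12, and -0.27 ± 0.06 without it. These factors are regulated largely by phosphorylation and location, which RNA levels do not show.

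Taking the 23 genes outside the pump as a group, the median log2 fold change was 0.08 with 15 genes above 0 and 8 below. Without siNC 2 it was -0.10, with 8 genes above 0 and 15 below, so the direction of the group median rested on that library. The pump median was -0.03 with siNC 2 and -0.01 without it. SiNC 2 was the lowest of the 6 libraries for 20 of the 23 genes and for 6 of the 17 pump genes, against 27.1% of all genes tested. It was the highest for 2 of the 23 and 6 of the 17, against 28.8% of all genes tested. Relative to the mean of siNC 1 and 3, the median log2 level in siNC 2 was -0.36 over the 23 genes and -0.02 over the pump. The macrophage marker sum of siNC 2 was low and its neutrophil marker sum was high. Cd14, Itgam and Csf3r did not follow the sums of their lists. The part of these markers in the siNC 2 values was not tested.

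**Figure D5:**
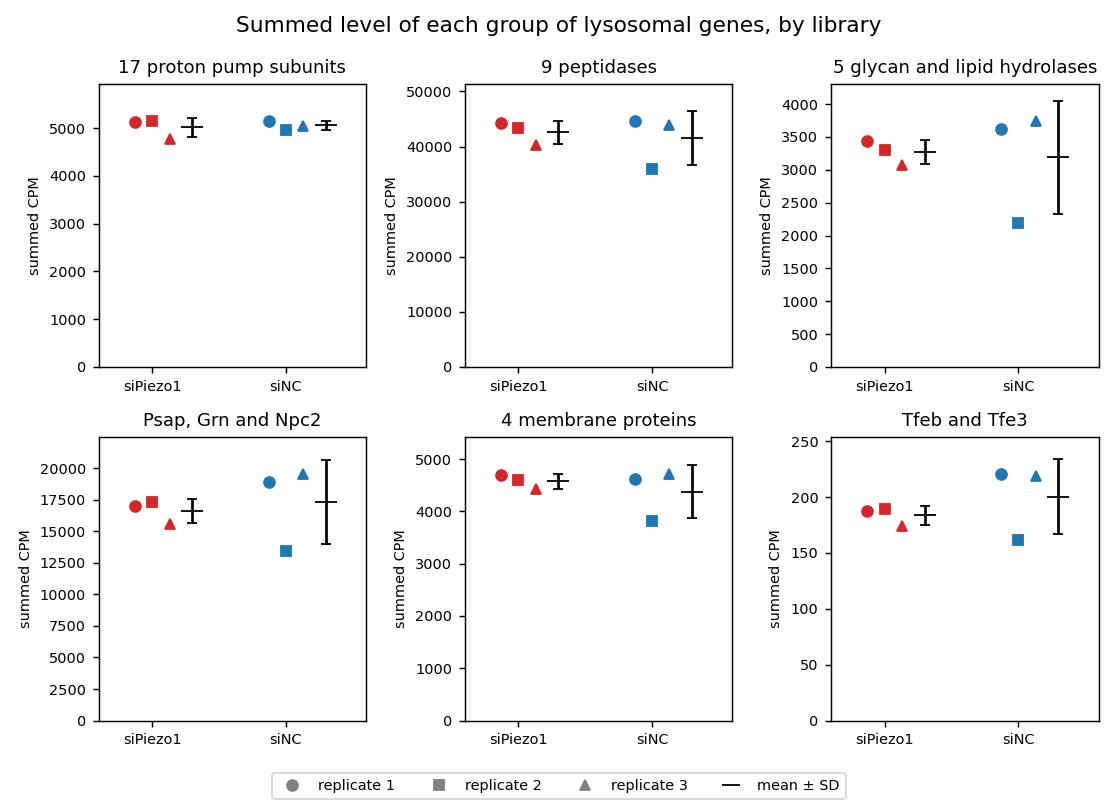
Summed CPM of each group of lysosomal genes in each library (points, siPiezo1 left and siNC right, replicates by shape) with group means ± SD (black marks, n = 3) and axes from 0. Pump sums lie between 4779 and 5159 CPM in all 6 libraries, whereas siNC 2 is the lowest point of each group outside the pump.

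Further genes of the same pathways, from lists chosen by function, are given next. No gene of the 7 lists was called in 6 libraries. Among 37 tested of 38 other lysosomal hydrolases, 22 were above 0 and 15 below, with a median log2 fold change of 0.06. Ggh, gamma-glutamyl hydrolase, was at 186, 177 and 189 CPM in siPiezo1 and 153, 164 and 159 CPM in siNC, without overlap, a log2 fold change of 0.22 ± 0.07. Manba, beta-mannosidase, gave 0.33 ± 0.13, and Arsa, arylsulfatase A, 0.21 ± 0.10, also without overlap. The groups did not overlap for 16.2% of the 37, against 11.9% of all genes tested. Without siNC 2, Ggh gave 0.24 ± 0.06, Manba 0.20 ± 0.07 and Arsa 0.15 ± 0.08.

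Without siNC 2, 2 of the 37 were called by edgeR's quasi-likelihood test, Benjamini-Hochberg adjusted, against 1.09% of all genes in that fit. They were Arsb, higher in siPiezo1 (0.645% of all genes), and Galc, lower (0.45% of all genes). Arsb, arylsulfatase B, was at 41.9, 47.4 and 47.1 CPM in siPiezo1 and 29.6, 66.3 and 29.5 CPM in siNC. Galc, the galactosylceramidase gene, was at 112, 110.2 and 96.2 CPM in siPiezo1 and 159.6, 86.9 and 157 CPM in siNC. In each gene siNC 2 lay beyond the siPiezo1 libraries, on the side away from siNC 1 and 3.

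Of 22 tested genes among 23 other lysosomal membrane proteins, 13 were above 0 and 9 below (median 0.04). Mcoln3, a relative of Mcoln1, was at 16.7, 15.6 and 15.0 CPM in siPiezo1 and 10.2, 8.01 and 12.1 CPM in siNC, with a log2 fold change of 0.64 ± 0.18. Tpcn2, a lysosomal cation channel, was at 26.8, 31.3 and 30.0 CPM in siPiezo1 and 40.6, 32.0 and 36.4 CPM in siNC, with a log2 fold change of -0.31 ± 0.12. Neither gene's groups overlapped, though for Tpcn2 siPiezo1 2 was just below siNC 2. The groups did not overlap for 22.7% of the tested genes of this list, against 11.9% of all genes tested. For Mcoln3, adjusted p was 0.936 by edgeR's quasi-likelihood test, Benjamini-Hochberg adjusted. Cln3, a membrane protein mutated in Batten disease, gave 0.18 ± 0.07. Leaving out siNC 2 gave 0.49 ± 0.14 for Mcoln3, -0.39 ± 0.10 for Tpcn2 and 0.14 ± 0.06 for Cln3, and none was called.

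Only 10 of 16 other V-ATPase subunits and assembly factors were expressed enough to test, 4 above 0 and 6 below (median -0.01). Those with the smallest p were Dmxl1 at -0.19 ± 0.16, Rogdi at -0.15 ± 0.16 and Rnasek at 0.51 ± 0.55, whose libraries varied widely within both groups. Without siNC 2, Dmxl1 gave -0.35 ± 0.07 and Rnasek 0.28 ± 0.81, and neither was called. The 8 genes of mannose 6-phosphate sorting, by which new hydrolases reach the lysosome, had a median of 0.02, and the sorting receptor Sort1 gave 0.19 ± 0.07. The 17 genes around TFEB-family factors and mTORC1 on the lysosome had a median of 0.01, with Rraga, a GTPase of amino acid sensing, at -0.26 ± 0.11, and -0.17 ± 0.08 without siNC 2. The 15 autophagy genes had a median of 0.10, with Map1lc3b at 0.41 ± 0.21 and Atg9a at 0.17 ± 0.08. Map1lc3b was at 119, 188 and 108 CPM in siPiezo1 and 104, 98.0 and 111 CPM in siNC. Its groups overlapped, and siPiezo1 2 was far above the other libraries. Without siNC 2 the list medians were -0.07 for the other pump genes, 0.05 for the other hydrolases, -0.06 for the other membrane proteins, -0.02 for the genes around TFEB and mTORC1, and 0.06 for autophagy.

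The 7 inhibitors of cysteine peptidases were the exception in spread, with a median of -0.99 that became 0.53 without siNC 2. Cystatin C (Cst3) was at 689, 501 and 529 CPM in siPiezo1 and 636, 446 and 521 CPM in siNC, and Cstb, stefin B, at 424 to 441 CPM in siPiezo1 and 427 to 440 CPM in siNC. Cst6, cystatin E/M, had the smallest p of the list and was at 0.391, 0.571 and 0.463 CPM in siPiezo1 libraries 1, 2 and 3, against 0, 0.106 and 0 CPM in siNC libraries 1, 2 and 3. It was thus near 0 in all 6 libraries, and no fold is given. Stfa1, a stefin of myeloid cells, was at 4.98, 4.83 and 7.94 CPM in siPiezo1 and 3.11, 185 and 2.69 CPM in siNC. Stfa3 was at 19.7, 27.3 and 52.4 CPM in siPiezo1 and 6.93, 324 and 7.78 CPM in siNC. The abundant inhibitors overlapped between groups, and the stefin A genes were dominated by siNC 2, the library with the highest neutrophil marker sum. These Stfa genes are closely related paralogs, so counts may be split among them.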

How the data were processed

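Poly(A) RNA of 6 BMDM libraries, 3 siPiezo1 and 3 siNC, was sequenced as paired ends from dUTP strand-marked libraries, per the labels' protocols. Per the submitters' processing notes, cutadapt 1.9, HISAT2 2.0.4 and StringTie 1.3.4d were used on GRCm39, with DESeq2 and edgeR also named; for each tool's role, the annotation and the use of strand the sources used here give no detail. The authors deposited unscaled whole-number estimated counts for each Ensembl gene, in which 1 fragment was worth about 3.80 to 3.83 counts; the design had assumed plain counts, and the same test was used, with no rounding needed. The depth of 16.1 to 19.7 M fragments per library limits the scarce genes most.

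Symbols came from GENCODE M21 and matched 55141 of 55401 identifiers. Genes were kept by filterByExpr (15959) and tested in R 4.3.3 with edgeR 4.0.16, quasi-likelihood with robust dispersion, TMM scaling and the group as the only term; SE is the log2 fold change over the square root of F. The Benjamini-Hochberg adjustment ran over all genes tested, at 0.05. The labels do not tie replicates to cultures or mice of their own; a p-value here measures the spread among these libraries, which may be technical. CPM per kilobase used the exon union of M21. Alternatives were DESeq2 1.42.0, limma-voom (limma 3.58.1), other scalings and filters, the replicate number as a block and each library left out; counts divided by 4 came later, with the files in view. The fit was checked before use on simulated counts. With 3 against 3 libraries it called 2.99% of genes changed 1.5-fold, 20.9% changed 2-fold and 62.1% changed 4-fold. With 3 siPiezo1 against 2 siNC libraries it called 14.9, 65.7 and 66.7% of them, and 8.41% of its calls were false. A gene that was not called may thus still have changed.

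Named with values were genes called in the 6 libraries or without 1 library, the 4 smallest p in each role, and the isoforms of subunits a and d. The values of Atp6v0c, Ctss, Lgmn and Lipa, and the ranges of Ctsb and Ctsd, were added after they were seen. From each other list up to 3 genes with the smallest p were named, and Arsb, Galc, Cst3, Cstb and Stfa3 were added. The genes, the lists and the attention to siNC 2 were chosen with earlier results of these data known.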

Additional observations from a re-analysis of the deposited data

How the results depend on the processing

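Over all genes, the 6-library test called 0 higher in siPiezo1 and 1 lower. With DESeq2 these were 46 higher and 42 lower, leaving out single libraries gave 0 to 106 higher and 0 to 74 lower, and library totals alone or the replicate block gave 0 lower. Of the 40 lysosomal genes, 0 were called in either direction, against 1 lower with DESeq2 and, leaving out libraries, 0 to 1 higher and 0 to 2 lower, the calls appearing without siNC 2. Same-numbered libraries deviated from their group means with correlations of 0.03, -0.06 and -0.09. With groups of 3, such correlations cannot show whether these libraries shared mice or cultures. The fit with the replicate block also called 0 of the 40. Median log2 fold changes ran from -0.10 to 0.12 for the 23 genes outside the pump and from -0.04 to -0.01 for the pump when single libraries were left out. Without siNC 2, 12 of the 40 changed sign, against 3756 of 15945 genes tested in both fits. Among the 29 genes covered by the naming rule, ranges that crossed 0 when single libraries were left out were -0.26 to 0.026 (Hexa), -0.078 to 0.10 (Lamp1), -0.11 to 0.064 (Npc1), -0.25 to 0.35 (Tfeb), -0.022 to 0.21 (Npc2), -0.20 to 0.048 (Psap), -0.023 to 0.15 (Atp6ap2), -0.13 to 0.031 (Atp6v1e1) and -0.13 to 0.046 (Atp6v1h). Atp6v0a1 stayed between -0.55 and -0.48. Isoform shares without scaling by length were 11.8% in siPiezo1 and 17.04% in siNC for Atp6v0a1, 15.9% and 11.7% for Atp6v0a2, 72.2% and 71.3% for Tcirg1, and 7.10% and 11.98% for Atp6v0d2. The cause of these changes was not tested. Groups of 3 are too small for a check of single outlying samples.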
